A study of Mus musculus with 17 samples.

Results

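The genes described here are the mouse zinc finger genes whose symbols run from Zfp930 to Zfp964. They were chosen by symbol alone, as every gene named Zfp9 followed by 2 more digits in both expression tables. This gave 32 of the 23980 genes listed, beside 301 other genes with a numbered Zfp symbol. The symbols are nomenclature numbers, so the 32 genes share no pathway by definition. Most encode Krüppel-associated box (KRAB) zinc finger proteins. Such a protein binds DNA through a row of zinc fingers, each built around a zinc ion. Its KRAB domain recruits the co-repressor TRIM28, which brings in the histone methyltransferase SETDB1 and heterochromatin proteins. The family is best known for silencing retrotransposons, and many of its genes lie in clusters that expanded in rodents.

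Poly(A)+ RNA was sequenced in 17 libraries from mice labelled C57BL6/J. FACS-purified leptotene/zygotene (L/Z) spermatocytes, germ cells at the start of meiotic prophase, came from animals 3 to 4 weeks after birth and gave 2 libraries each of Pld6 KO, Dnmt3l KO and wild type (WT). Whole newborn testes (P0), in which prospermatogonia are surrounded by somatic cells, gave 2 WT, 4 Pld6 KO, 2 Dnmt3l KO and 3 Pld6/Dnmt3l double KO (DKO) libraries. Pld6 encodes a mitochondrial protein required to make piRNAs, and Dnmt3l a cofactor of the DNA methyltransferases that act in fetal male germ cells. The mutant lines had been backcrossed to C57BL/6J, and no restriction of either KO to germ cells is given. L/Z libraries were read as single 50-base reads and P0 libraries as pairs of 100-base reads, and the tables of the stages were normalized separately. The labels call the libraries biological replicates without naming animals.

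The sequences at the starts of 5 of these genes are printed for their CpG content and for what neighbours share. CpG is the dinucleotide that DNA methyltransferases methylate, and its cytosine and guanine are in capitals. The windows run from 250 bases before to 50 bases after the RefSeq start on GRCm38.p6, the same genome as the mm10 build of the tables. Zfp942 (chr17:21962415-21962714, minus strand, 20 CpG) and Zfp943 (chr17:21962309-21962608, plus strand, 21 CpG) are shown because they start back to back, with 94 bases between the starts the windows are built on, and their windows share 194 bases. Zfp943 was the one gene of the 32 called different in a mutant. Zfp944 (chr17:22361351-22361650, minus strand, 22 CpG) is shown because its window and that of Zfp942 had 274 of 275 aligned bases in common.
Zfp942: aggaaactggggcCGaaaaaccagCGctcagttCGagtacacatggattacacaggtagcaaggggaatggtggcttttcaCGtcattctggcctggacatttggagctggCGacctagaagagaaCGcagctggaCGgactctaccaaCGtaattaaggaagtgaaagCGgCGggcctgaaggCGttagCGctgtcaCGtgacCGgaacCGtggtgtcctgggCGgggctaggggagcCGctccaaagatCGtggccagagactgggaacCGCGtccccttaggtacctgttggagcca
Zfp943: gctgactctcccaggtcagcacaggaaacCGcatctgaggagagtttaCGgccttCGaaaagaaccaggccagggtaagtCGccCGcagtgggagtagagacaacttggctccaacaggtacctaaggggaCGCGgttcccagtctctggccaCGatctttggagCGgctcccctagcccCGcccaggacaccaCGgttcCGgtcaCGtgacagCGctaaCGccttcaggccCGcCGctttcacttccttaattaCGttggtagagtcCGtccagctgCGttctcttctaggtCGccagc
Zfp944: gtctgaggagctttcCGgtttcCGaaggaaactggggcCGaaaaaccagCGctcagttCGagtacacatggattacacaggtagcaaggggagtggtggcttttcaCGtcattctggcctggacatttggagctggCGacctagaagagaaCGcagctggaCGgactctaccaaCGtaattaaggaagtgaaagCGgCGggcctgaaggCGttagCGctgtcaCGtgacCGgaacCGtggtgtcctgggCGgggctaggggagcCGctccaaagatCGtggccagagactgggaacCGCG

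Zfp961 (chr8:71950816-71951115, plus strand, 21 CpG), one of the most abundant of these genes at both stages, and Zfp936 (chr7:43177340-43177639, plus strand, 6 CpG), whose WT level was lower at P0 than at L/Z, are shown for contrast.
Zfp961: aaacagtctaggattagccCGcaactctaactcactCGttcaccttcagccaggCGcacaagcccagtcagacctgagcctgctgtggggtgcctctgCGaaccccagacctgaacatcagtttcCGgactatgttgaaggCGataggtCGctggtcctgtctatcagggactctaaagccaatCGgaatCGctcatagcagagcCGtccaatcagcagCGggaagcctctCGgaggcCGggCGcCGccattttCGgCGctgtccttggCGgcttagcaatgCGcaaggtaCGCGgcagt
Zfp936: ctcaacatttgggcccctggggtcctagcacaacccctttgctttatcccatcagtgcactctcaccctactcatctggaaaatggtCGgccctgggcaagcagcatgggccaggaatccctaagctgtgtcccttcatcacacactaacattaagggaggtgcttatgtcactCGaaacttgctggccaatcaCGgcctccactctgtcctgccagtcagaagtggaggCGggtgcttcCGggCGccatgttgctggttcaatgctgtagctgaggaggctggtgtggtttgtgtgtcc

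A start window was found for 29 of the 32 genes. Where a gene had more than 1 listed start, only the first was used, for the members and for all genes. With a GC content over 50% and an observed-to-expected CpG ratio over 0.6, 6 of the 29 were CpG-dense (Zfp942, Zfp943, Zfp944, Zfp956, Zfp961 and Zfp964), against 33.9% of the 27025 genes with a window. The median observed-to-expected CpG ratio was 0.47 for the members and 0.39 for all genes. DNA methylation was not analysed here.

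The 32 genes lay on 11 chromosomes in the RefSeq gene annotation, with 10 on chromosome 17, 5 each on chromosomes 7 and 8, and 3 on chromosome 13. Of the 10 on chromosome 17, 7 lay together between positions 21565816 and 22867309, in the order Zfp948, Zfp942, Zfp943, Zfp947, Zfp944, Zfp946 and Zfp945. When the longest annotated coding sequence of each gene was translated, 29 of 32 held at least 1 zinc finger of the classical cysteine-histidine spacing. The median was 10.5 fingers and the highest count was 18, in Zfp945. A match to the conserved core of the KRAB box was found in 28 of 32. The exceptions were Zfp939, Zfp947, Zfp956 and Zfp957, of which Zfp939 gave no complete coding sequence. Paralogy limited how well reads could be assigned. Over 20% of all 50-base windows of the transcripts also occurred in another gene's transcript for 8 of the 32 (Zfp932, Zfp934, Zfp935, Zfp937, Zfp947, Zfp959, Zfp960 and Zfp963), and the values of these genes are uncertain. For Zfp935 the share was 100%, mostly with Gm49359, and for Zfp960 it was 84.5%, mostly with Zfp97. The share was under 5% for 18 genes, Zfp943 among them at 4.0%. Zfp942 and Zfp944 shared 9.0% and 10.4% of their windows, mostly with each other.

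Library depth ranged from 5194238 to 14578341 fragments at L/Z and from 9900346 to 23498968 at P0, of which the 32 genes held 2579 to 14182 per library. Pld6 and Dnmt3l were near or at 0 where the labels say they were deleted, with Pld6 at 0 counts in L/Z Pld6 KO and in DKO and at most 2 in P0 Pld6 KO, and Dnmt3l at 0 in L/Z Dnmt3l KO and at most 3 in P0 Dnmt3l KO and DKO. All 12 listed L/Z spermatocyte markers were detected in every L/Z library, but also in every P0 library, so detection alone cannot tell the stages apart. Their summed level was 4009 to 10940 CPM at L/Z and 128.9 to 382.2 at P0, in tables scaled separately. All 10 listed Sertoli markers were detected in every L/Z library too. In bulk RNA, fewer cells of a type and less RNA per cell cannot be told apart. GC content is given beside the results because transcripts of the 32 genes are AT-rich, with a median GC content of 39.0% (33.2% to 53.9%) against 48.7% for all genes, and because the libraries differed in how level followed GC.

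Most of the 32 genes were modestly expressed in WT germ cells and testes. In FPKM, which corrects for transcript length, the median WT level was 3.77 at L/Z, with a range from 0.050 to 13.96, against 9.52 for all genes tested. At P0 the median was 5.55, with a range from 0.048 to 14.04, against 9.39. In L/Z spermatocytes the 6 highest mean levels were those of Zfp942 (13.96 ± 1.66 FPKM, SD, n = 2), Zfp961 (13.1 ± 1.45), Zfp932 (12.2 ± 0.933), Zfp951 (11.8 ± 1.13), Zfp934 (10.3 ± 1.57) and Zfp956 (10.3 ± 2.94). Zfp932 is a KRAB zinc finger protein known, with its paralog Gm15446, to bind endogenous retroviruses. Replicates of neighbours in this order overlapped for 29 of 31 neighbouring pairs, so most of the order is not resolved.

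At P0 the 6 highest levels were those of Zfp948 (14.04 ± 0.874 FPKM, SD, n = 2), Zfp932 (13.9 ± 1.55), Zfp960 (13.1 ± 5.10), Zfp961 (11.3 ± 1.13), Zfp946 (10.9 ± 0.0718) and Zfp942 (9.45 ± 0.177). Neighbours in this order overlapped for 23 of 31 pairs, and among the leading genes the replicates of Zfp946 and Zfp942 were apart. Zfp957 was the lowest at both stages, with 0 to 2 counts in each of the 17 libraries, and it was the one gene left out of the tests by the filter on low counts. Zfp936 stood at 7.47 and 10.5 FPKM in the WT L/Z libraries and at 0.368 and 0.907 in the WT P0 libraries. Zfp948 was placed in the other order, at 4.51 ± 1.74 FPKM at L/Z (SD, n = 2) beside its 14.04 at P0, and Zfp946 stood at 2.88 ± 1.16 FPKM at L/Z beside its 10.9. These values come from tables scaled separately and from libraries of unlike read type and tissue, so they were not tested against each other. Over the 31 genes other than Zfp957, the Spearman correlation of WT levels between the stages was 0.64, a description across genes of libraries that share gene length and sequence.

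**Figure D1:**
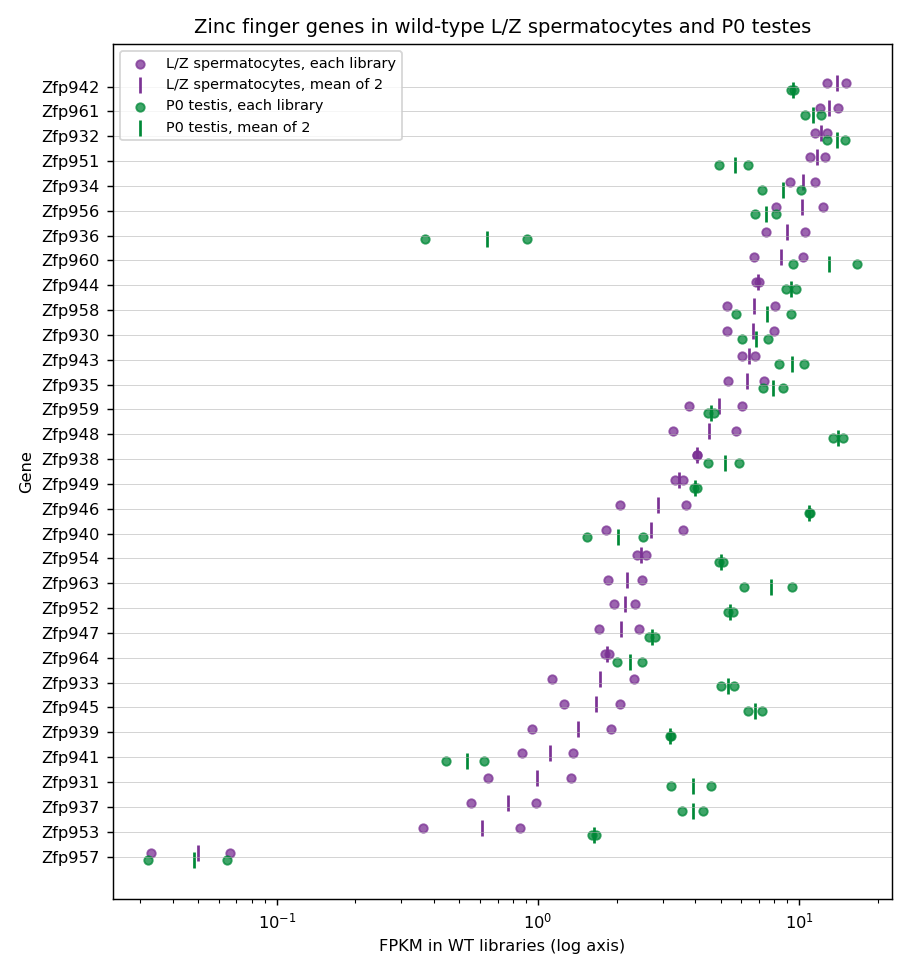
FPKM (log axis) of the 32 zinc finger genes in each of the 2 WT libraries of L/Z spermatocytes (purple points) and of P0 testes (green points), with a vertical mark at each mean, ordered by L/Z level. At both stages most genes sit below 14.04 FPKM and above 1, whereas Zfp936 is at 8.997 FPKM at L/Z and 0.638 at P0, and Zfp957 is near 0.05 at both.

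To ask how the loss of Dnmt3l altered these genes in meiosis, Dnmt3l KO and WT L/Z spermatocytes were compared. Zfp943, which encodes a protein with a KRAB box and 11 zinc fingers, was higher in both mutant libraries than in either WT library. Scaled to library size (CPM, TMM-scaled), the WT libraries held 17.3 and 15.4, the Pld6 KO libraries 26.02 and 33.7, and the Dnmt3l KO libraries 43.2 and 36.9, from 179 to 515 counts per library. Every mutant library lay above both WT libraries, and both Dnmt3l KO libraries lay above both Pld6 KO libraries. In Dnmt3l KO Zfp943 rose by 1.29 ± 0.26 (SE) on the log2 scale over WT, a fold change of 2.44 (adjusted p = 0.0211, edgeR quasi-likelihood test, Benjamini-Hochberg over 14662 genes). The call depended on the correction for GC and on single libraries. An offset that removes the trend of each library with GC content and transcript length is called the GC and length offset. With it the rise was 0.66 ± 0.23 (adjusted p = 0.139, edgeR). The call was also lost without Dnmt3l KO replicate 1 and without WT replicate 1. The rise itself, without the offset, ranged from 1.155 to 1.402 when 1 library was left out.

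Zfp943 was the only member of the 31 tested that was called in Dnmt3l KO L/Z spermatocytes, where a call needs an adjusted p under 0.05 and a change over 2-fold. The share called among all genes was 5.47%, so 1 of 31 is near the background. Among the other numbered Zfp genes, 9 of 288 were called higher and 4 lower. An unadjusted p under 0.05 was reached by 4 of the 31, Zfp943, Zfp948, Zfp944 and Zfp942, beside 26.7% of all genes. All 4 lie in the chromosome 17 cluster. With the GC and length offset 8 of the 31 reached such a p, and none was called. Of these Zfp943 was higher, and Zfp930, Zfp932, Zfp933, Zfp934, Zfp940, Zfp941 and Zfp952 were lower.

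Zfp942, the divergent neighbour of Zfp943, had 39.5 and 46.8 CPM in the WT libraries. It had 49.7 and 65.5 under Pld6 KO, with 68.8 and 61.8 under Dnmt3l KO. WT libraries were lowest, and the mutant groups overlapped each other. The log2 difference between Dnmt3l KO and WT was 0.60 ± 0.23 (SE, adjusted p = 0.13, edgeR) and −0.0037 ± 0.21 with the GC and length offset. Zfp944, which shares nearly all of the Zfp942 start window, had 18.2 and 17.8 CPM (WT), 20.9 and 28.1 (Pld6 KO) and 30.99 and 27.4 (Dnmt3l KO). Its log2 difference in Dnmt3l KO was 0.70 ± 0.26 (adjusted p = 0.123) and 0.14 ± 0.24 with the offset. Zfp948, which comes just before Zfp942 in the cluster order of these genes, had 13.8 and 7.91 CPM (WT), 19.6 and 15.4 (Pld6 KO) and 18.6 and 22.04 (Dnmt3l KO). Its log2 difference in Dnmt3l KO was 0.91 ± 0.33 (adjusted p = 0.111). The Zfp948 difference was 0.43 ± 0.34 with the offset, 0.57 without WT replicate 2 and 1.37 without WT replicate 1. None of these 3 passed the test, although their WT and Dnmt3l KO libraries did not overlap.

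**Figure D2:**
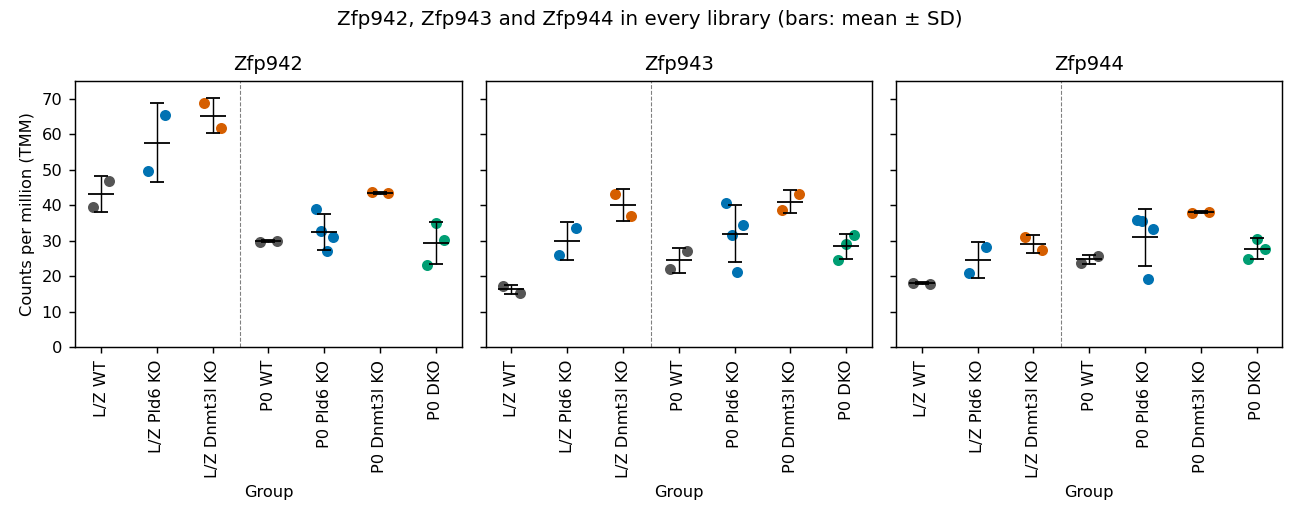
CPM (counts scaled to library size) of Zfp942, Zfp943 and Zfp944 in each library, by group, with L/Z groups left and P0 groups right of the dashed line. Points are libraries and bars the mean ± SD over 2 to 4 libraries. For Zfp943 the L/Z Dnmt3l KO libraries, at 36.9 and 43.2, sit above those of WT, at 15.4 and 17.3.

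Over all 31 genes tested at L/Z, 21 fitted changes in Dnmt3l KO were above 0 and 10 below, beside 47.8% of all genes above 0, with a median log2 change of 0.19 against −0.04 over all genes and 0.07 over the other numbered Zfp genes. The libraries of the groups did not overlap for 11 higher and 5 lower members, beside 28.1% and 27.5% of all genes. The direction of the median depended on GC. With the GC and length offset it was −0.38, with 7 genes above 0 and 24 below. When 1 library was left out, the median without the offset ranged from 0.03 to 0.36. In all genes, the deviation of a library from the stage mean had a Spearman correlation with transcript GC of 0.343 and 0.336 (WT), 0.19 and −0.221 (Pld6 KO) and −0.256 and −0.431 (Dnmt3l KO). Whether this trend is technical or biological was not tested. The summed level of the 12 L/Z markers was 9919 to 10940 CPM in Dnmt3l KO against 4009 to 5511 in WT, and that of 10 Sertoli markers 129 to 448 against 489 to 729. The part of cell composition in these differences was not tested.

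Falls in Dnmt3l KO L/Z spermatocytes are named for members with separate groups and a mean of at least 50 counts in the higher group. The lowest fitted changes among these were small in count and none passed the test. Zfp952 had 6.61 and 5.53 CPM in WT and 3.60 and 3.29 in Dnmt3l KO, a log2 difference of −0.82 ± 0.41 (SE, adjusted p = 0.225, edgeR). Zfp940 had 9.23 and 4.67 CPM in WT and 4.00 and 4.29 in Dnmt3l KO (log2 difference −0.74 ± 0.43), which was −0.17 without WT replicate 1 and −1.14 without WT replicate 2. Zfp954 had 4.40 and 4.76 CPM against 3.40 and 2.72 (−0.60 ± 0.44). The Dnmt3l KO libraries lay below both WT libraries for each of these. With the GC and length offset the differences were −1.19 ± 0.40 (Zfp952), −1.05 ± 0.42 (Zfp940) and −0.53 ± 0.43 (Zfp954). Zfp932 went from −0.17 ± 0.27 to −0.79 ± 0.25 with the offset (adjusted p = 0.103, edgeR). Zfp963, whose transcript shares 40.4% of its windows mostly with Gm20422, had 3.90 and 5.27 CPM in WT and 7.40 and 7.37 in Dnmt3l KO. Its difference was 0.69 ± 0.40, and 0.35 ± 0.37 with the offset.

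In Pld6 KO L/Z spermatocytes no member was called by edgeR, DESeq2 or limma, beside 0.225% of all genes by edgeR. An unadjusted p under 0.05 was reached by 2 of 31, Zfp943 and Zfp951, beside 9.17% of all genes. The Zfp943 values given above correspond to a log2 difference of 0.87 ± 0.26 (SE, adjusted p = 0.326, edgeR). Zfp951 had 34.0 and 29.8 CPM in WT and 49.7 and 46.8 in Pld6 KO, a log2 difference of 0.60 ± 0.22 (adjusted p = 0.466). Its Dnmt3l KO libraries, at 40.6 and 41.6 CPM, fell between those groups.

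The largest fitted rise was that of the low-count gene Zfp953, with 3.81 and 1.61 CPM in WT and 7.996 and 4.34 in Pld6 KO (log2 difference 1.16 ± 0.54, adjusted p = 0.543, edgeR). Zfp948, whose libraries are given above, differed from WT by 0.68 ± 0.33. In the other direction, Zfp956 had 21.0 and 31.7 CPM in WT and 17.1 and 19.5 in Pld6 KO, a log2 difference of −0.52 ± 0.31. Zfp938 had 7.45 and 7.48 CPM against 6.25 and 4.34 (−0.51 ± 0.37). Zfp932 had 24.1 and 21.7 against 15.3 and 20.9 (−0.33 ± 0.27). Single libraries moved these differences. The Zfp953 value was 1.90 without WT replicate 1 and 0.67 without WT replicate 2, that of Zfp948 was 1.14 and 0.34, and that of Zfp956 was −0.79 and −0.19. The Zfp938 value was −0.78 without Pld6 KO replicate 1 and −0.26 without Pld6 KO replicate 2, and that of Zfp932 was −0.13 and −0.59. Among all 31, 21 fitted changes were above 0, beside 50.5% of all genes, with a median of 0.21 against 0.00 for all genes and 0.19 for the other numbered Zfp genes. That median was 0.00 with the GC and length offset, 0.45 without WT replicate 1 and 0.03 without WT replicate 2. Groups were apart for 11 higher and 3 lower members, beside 21.6% and 21.3% of all genes.

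Dnmt3l KO and Pld6 KO L/Z spermatocytes, compared directly, gave no called member, beside 0.0477% of all genes, and 1 of 31 had an unadjusted p under 0.05 (17.5% of all genes). DESeq2 and limma called none either. Members were above 0 in 14 of 31 cases (49.8% of all genes), and groups were apart for 6 higher and 9 lower members (26.9% and 26.2% of all genes). The median log2 difference, Dnmt3l KO minus Pld6 KO, was −0.01 and, with the GC and length offset, −0.35. For Zfp943 the difference was 0.42, which did not pass the test. With 2 libraries a group, the median SE of the 31 genes was 0.37 on the log2 scale.

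**Figure D3:**
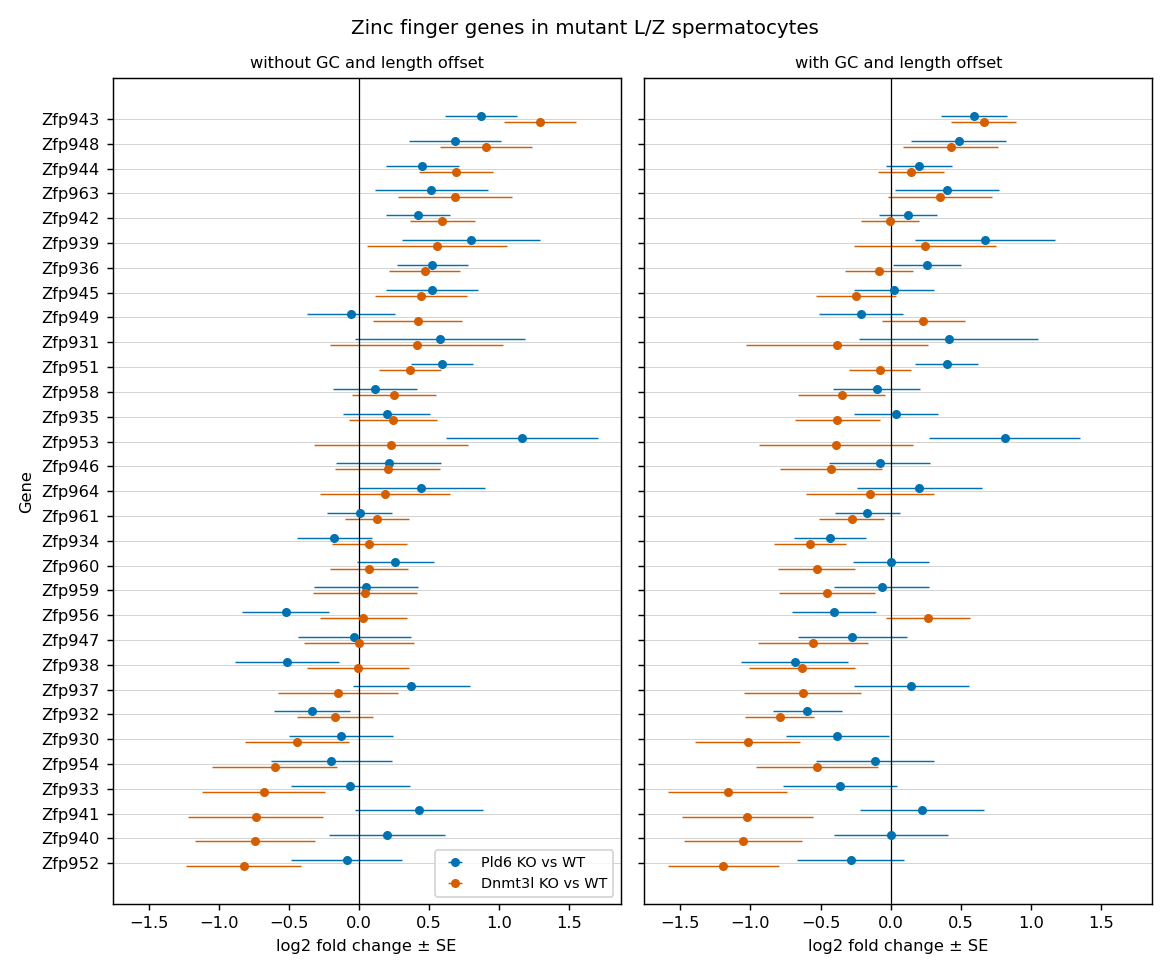
Log2 fold change over WT ± SE for the 31 tested zinc finger genes in L/Z Pld6 KO (blue) and L/Z Dnmt3l KO (orange), each from 2 libraries a group, without (left) and with (right) the GC and length offset. Zfp943 is at the top of both panels, with Dnmt3l KO at 1.29 on the left and 0.66 on the right, and the medians of Dnmt3l KO are 0.19 and −0.38.

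In newborn testes the same genes were compared among 4 genotypes. In Dnmt3l KO no member was called, and neither was any other gene (0.0% of 15901 by edgeR), so the members stood no differently from other genes in this respect. DESeq2 and limma called no member either. The fitted changes of the 31 genes nevertheless leaned one way. Values above 0 were found for 30 of 31, beside 52.7% of all genes, with a median log2 change of 0.40 against 0.03 for all genes and 0.05 for the other numbered Zfp genes. An unadjusted p under 0.05 was reached by 9 of 31, all higher, beside 12.9% of all genes in either direction. Both Dnmt3l KO libraries lay above both WT libraries for 21 of 31, beside 25.3% of all genes, and for none were both below. Among the 23 genes sharing at most 20% of their 50-base windows, all 23 were above 0, with a median of 0.40.

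This lean was smaller after correction for GC. With the GC and length offset 17 of 31 genes were above 0, 2 had an unadjusted p under 0.05, and the median was 0.08 against −0.03 for all genes. The Spearman correlation of a library's deviation with transcript GC was −0.382 and −0.384 in the Dnmt3l KO libraries, and from −0.061 to 0.35 in the other 9 P0 libraries. The median was 0.22 without WT replicate 1. Markers of cell types also moved with the genotype. The summed level of 10 prospermatogonia markers was 396 to 529 CPM in Dnmt3l KO against 278 to 349 in WT, that of 10 spermatogonia markers 148 to 202 against 243 to 292, and that of 10 Sertoli markers 3456 to 3969 against 4803 to 5058. Leydig markers (2191 to 2957 against 1854 to 1918) and macrophage markers (96.1 to 101.7 against 79.4 to 87.2) were also higher in Dnmt3l KO. So were the L/Z markers (243.5 to 382.2 against 175.5 to 200.6). Sums of peritubular myoid, blood and pachytene markers overlapped those of WT. The prospermatogonia list is not particular to that cell type, as it summed to 3091 to 5695 CPM in the L/Z libraries. The part of these marker differences in the zinc finger gene values was not tested.

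Zfp938 had the highest fitted change at P0. Its levels were 8.58 and 11.1 CPM in WT, 14.5, 9.70, 8.99 and 11.97 in the Pld6 KO libraries, 20.9 and 22.1 in the Dnmt3l KO libraries and 12.3, 18.4 and 11.6 in the DKO libraries. The Dnmt3l KO libraries stood above all others. The log2 difference between Dnmt3l KO and WT was 1.13 ± 0.30 (SE, adjusted p = 0.257, edgeR) and 0.62 ± 0.23 with the GC and length offset. At L/Z the same gene had 7.60 and 7.30 CPM in Dnmt3l KO, beside 7.45 and 7.48 in WT.

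Zfp945, with the most zinc fingers of the set, had 47.0 and 40.9 CPM in WT, 67.2 and 84.2 in the Dnmt3l KO libraries and 58.9, 75.3 and 58.6 in the DKO libraries. In Pld6 KO it ranged from 41.7 to 80.1. Each Dnmt3l KO and DKO library was above both WT libraries, while Pld6 KO overlapped WT. The log2 differences from WT were 0.79 ± 0.26 in Dnmt3l KO, 0.53 ± 0.23 in Pld6 KO and 0.55 ± 0.24 in DKO (SE, adjusted p = 0.305, 0.963 and 0.588, edgeR). These comparisons share the 2 WT libraries.

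Zfp943 at P0 had 21.9 and 27.0 CPM in WT, 40.5, 31.6, 21.2 and 34.3 in the Pld6 KO libraries, 38.7 and 43.3 in the Dnmt3l KO libraries and 24.5, 29.03 and 31.7 in the DKO libraries. The Dnmt3l KO libraries were above WT and DKO, and Pld6 KO spanned the range. Its log2 difference in Dnmt3l KO was 0.74 ± 0.26 (SE, adjusted p = 0.314, edgeR) and 0.30 ± 0.21 with the offset. Zfp942 had 29.6 and 30.1 CPM in WT and 43.8 and 43.4 in Dnmt3l KO (0.55 ± 0.22). Zfp944 had 23.8 and 25.7 against 37.8 and 38.2 (0.62 ± 0.26). With the offset these were 0.16 ± 0.17 and 0.21 ± 0.22, and neither passed the test without it. Zfp932 had 29.3 and 24.6 CPM in WT and 46.0 and 41.8 in Dnmt3l KO (0.70 ± 0.22, and 0.24 ± 0.19 with the offset), with 45.2% of its 50-base windows shared, mostly with Gm15446.

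In P0 Pld6 KO testes no member was called, beside 0.00629% of all genes, or 1 gene, by edgeR. DESeq2 and limma called none of the members. The median log2 change was 0.13 against 0.02 for all genes, with 24 of 31 above 0 (53.2% of all genes). An unadjusted p under 0.05 was reached by 4 of 31, all higher, beside 5.06% of all genes. All 4 Pld6 KO libraries lay above both WT libraries for 1 member, Zfp936, and below for none (5.83% and 5.69% of all genes). Zfp936 had 1.10 and 2.69 CPM in WT and 2.89, 3.18, 3.25 and 3.82 in Pld6 KO, from at most 40 counts per library in these groups. With the GC and length offset the median was 0.04. It was 0.04 without Pld6 KO replicate 1, 0.04 without WT replicate 1 and 0.23 without WT replicate 2. Replicate 1 of Pld6 KO stood apart from the other 3, with 129.8 CPM of prospermatogonia markers against 400.8 to 478.2 and 6 counts of Dnmt3l against 30 to 145. The 10 Sertoli markers summed to 4052 to 4178 CPM in Pld6 KO against 4803 to 5058 in WT, and 7 Leydig markers to 1970 to 3872 against 1854 to 1918. The part of these was not tested.

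In P0 DKO testes no member was called, beside 0.0126% of all genes, or 2 genes, by edgeR, and none by DESeq2 or limma. The median log2 change was 0.12, with 17 of 31 above 0 (52.0% of all genes), and 2 of 31 had an unadjusted p under 0.05 (7.97% of all genes). That median was −0.0008 with the GC and length offset, −0.02 without DKO replicate 2, 0.01 without WT replicate 1 and 0.19 without WT replicate 2. Sertoli markers summed to 3285 to 4270 CPM in DKO against 4803 to 5058 in WT, and their part was not tested. Groups were apart for 9 higher members and 1 lower, beside 15.7% and 13.4% of all genes. The largest fitted rises among members with separate groups and enough counts were those of Zfp936 (3.52, 2.96 and 3.44 CPM, log2 difference from WT 0.80 ± 0.42), Zfp945, Zfp938 (0.52 ± 0.27) and Zfp931 (0.48 ± 0.25). Zfp931 had 5.35 and 7.47 CPM in WT and 8.96, 9.40 and 8.55 in DKO, with DKO above WT throughout. Without WT replicate 1 and without WT replicate 2 the difference was 0.27 and 1.57 for Zfp936 and 0.23 and 0.74 for Zfp931, and for Zfp938 it was 0.28 without DKO replicate 2.

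**Figure D4:**
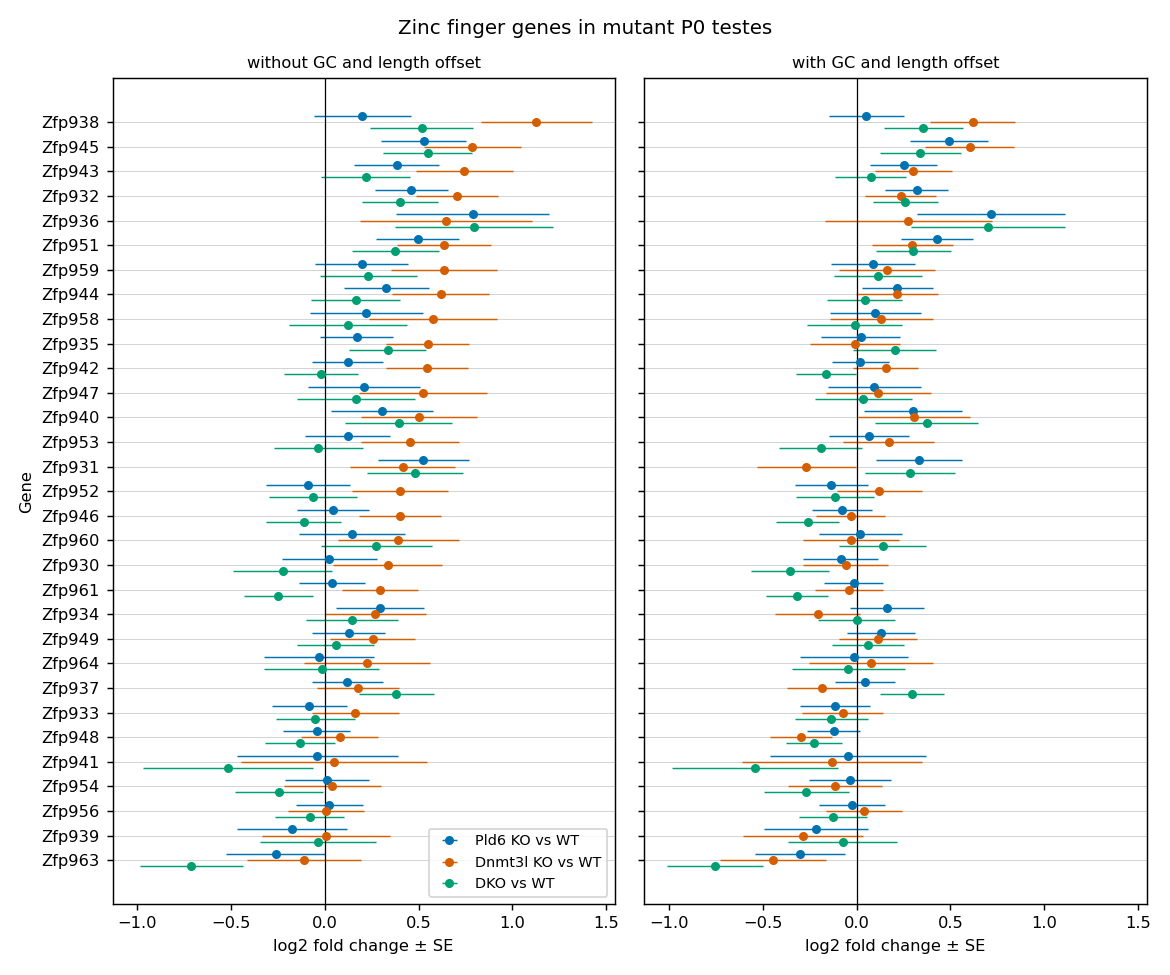
Log2 fold change over WT ± SE for the 31 tested zinc finger genes in P0 Pld6 KO (blue, 4 libraries), Dnmt3l KO (orange, 2) and DKO (green, 3), each against the same 2 WT libraries, without (left) and with (right) the GC and length offset. On the left 30 of 31 orange points are above 0 (median 0.40), and on the right 17 are (median 0.08).

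To ask how the mutations combine, DKO was set against each single mutant. Against Dnmt3l KO no member was called, beside 0.0755% of all genes, or 12 genes, by edgeR. Against Pld6 KO no member was called, beside 0.0% of all genes, and DESeq2 and limma called none in either comparison. The members were lower in DKO than in Dnmt3l KO in 28 of 31 cases (49.1% of all genes were higher), with a median log2 difference of −0.29 against −0.01 for all genes, and 6 of 31 had an unadjusted p under 0.05 (17.8% of all genes). All 3 DKO libraries lay below both Dnmt3l KO libraries for 16 of 31, beside 18.7% of all genes, and above for none. With the GC and length offset the median was −0.12. Zfp961 had 38.1 and 33.9 CPM in Dnmt3l KO and 19.9, 28.8 and 25.2 in DKO, a log2 difference of −0.54 ± 0.18 (SE, adjusted p = 0.166, edgeR). Against Pld6 KO the median was −0.07, 12 of 31 were above 0 (49.9% of all genes), and 0 of 31 had an unadjusted p under 0.05 (6.02% of all genes). No member had separate groups there (3.31% of all genes higher and 3.04% lower).

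The departure of DKO from the sum of both single-mutant effects was below 0 for 29 of 31 genes, beside 53.1% of all genes, with a median of −0.52 on the log2 scale against −0.04. It passed the test for no member and no gene (0.0% of all genes by edgeR), and an unadjusted p under 0.05 was reached by 8 of 31 (10.9% of all genes). DESeq2 and limma found none either. The departure was −0.91 ± 0.32 (SE, adjusted p = 0.407, edgeR) for Zfp943. With the GC and length offset the median departure was −0.18, with 23 of 31 below 0, and without WT replicate 1 it was −0.33. The value reuses the WT and Dnmt3l KO libraries of the comparisons above and adds no separate evidence.

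**Figure D5:**
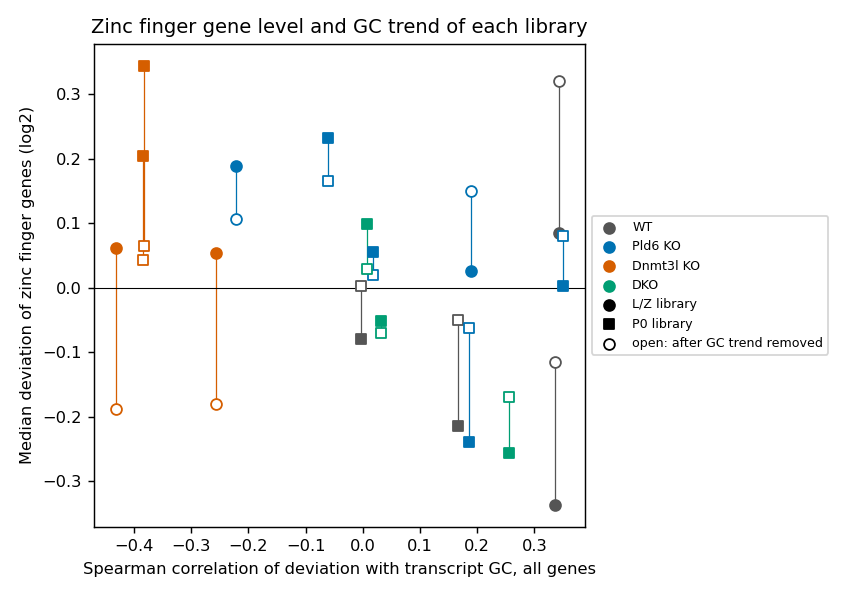
Median log2 deviation of the 31 zinc finger genes from their stage mean in each of the 17 libraries, against the Spearman correlation of all genes' deviations with transcript GC content in that library. Filled symbols are as measured and open symbols after removal of the GC and length trend, with circles for L/Z and squares for P0. The P0 Dnmt3l KO libraries, at −0.382 and −0.384, move from 0.344 and 0.204 to 0.064 and 0.043.

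The effect of each mutation was then compared between L/Z spermatocytes and P0 testes over the 14 libraries of WT and single mutants. No member differed at an adjusted p under 0.05 for Pld6 KO (0.0121% of all genes by edgeR) or for Dnmt3l KO (0.665%), and DESeq2 found none either. An unadjusted p under 0.05 was reached by 1 of 31 for Pld6 KO and by 4 of 31 for Dnmt3l KO, beside 9.52% and 17.2% of all genes. The L/Z effect minus the P0 effect was below 0 for 18 of 31 in Pld6 KO and for 24 of 31 in Dnmt3l KO, beside 53.0% and 54.6% of all genes. Its median in Dnmt3l KO was −0.31 against −0.08 for all genes. Zfp943, higher in Dnmt3l KO at both stages, had a difference of 0.50 between its effects. Stage cannot be told apart from tissue and read type here.

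RNA levels were also examined for a list of 19 co-repressor genes linked to KRAB zinc finger silencing, all tested at both stages. The list is wider than the proteins that bind KRAB, and protein was not measured. Trim28, which encodes the scaffold that binds KRAB, had in L/Z spermatocytes 692 ± 168 CPM (WT), 649 ± 11.9 (Pld6 KO) and 765 ± 78.0 (Dnmt3l KO) (SD, n = 2). Its log2 difference from WT was 0.15 ± 0.25 in Dnmt3l KO (SE, adjusted p = 0.74, edgeR). Setdb1, the methyltransferase, had 332 ± 59.3 CPM (WT), 438 ± 4.55 (Pld6 KO) and 582 ± 79.1 (Dnmt3l KO), a log2 difference of 0.81 ± 0.23 in Dnmt3l KO (adjusted p = 0.0571). At P0 Trim28 differed from WT by −0.38 ± 0.21 and Setdb1 by −0.26 ± 0.19 in Dnmt3l KO.

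Of the 19, 4 were called higher and none lower in L/Z Dnmt3l KO, beside 5.47% of all genes called, and none was called in the other 7 comparisons. The median log2 change of the list was 0.53 in L/Z Dnmt3l KO and 0.39 in L/Z Pld6 KO. Fam208a, a subunit of the HUSH silencing complex, had 88.0 and 95.8 CPM in WT and 224 and 254 in Dnmt3l KO, a log2 rise of 1.38 ± 0.21 (SE, adjusted p = 0.00871, edgeR). Smarcad1, a chromatin remodeller, rose by 1.29 ± 0.20 (adjusted p = 0.00876). Morc2a, an ATPase that works with HUSH, rose by 1.19 ± 0.23 (adjusted p = 0.0198), and Atf7ip2, related to the SETDB1 partner ATF7IP, rose by 1.10 ± 0.23 (adjusted p = 0.0234). With the GC and length offset Morc2a kept its call (1.17 ± 0.25, adjusted p = 0.0395), and Fam208a, Smarcad1 and Atf7ip2 did not (adjusted p = 0.0802, 0.0545 and 0.0984). Without Dnmt3l KO replicate 1 none of the 4 was called, and without WT replicate 1 Smarcad1, Morc2a and Atf7ip2 were not. Atf7ip2 was also not called without Dnmt3l KO replicate 2. When 1 library was left out, the rises ranged from 1.268 to 1.469 for Fam208a and from 1.181 to 1.415 for Smarcad1. They ranged from 1.009 to 1.403 for Morc2a and from 0.906 to 1.319 for Atf7ip2. The L/Z marker sums given above differed between these groups as well, and their part in the co-repressor levels was not tested.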

How the data were processed

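Poly(A)+ RNA libraries (TruSeq stranded) of mouse L/Z spermatocytes and P0 testes were analysed. The authors aligned reads with TopHat and quantified RefSeq genes on mm10 with Cuffdiff, versions not given in the sources used here. The deposited tables give estimated counts of fragments per gene and library, of which 97.8% (L/Z) and 97.7% (P0) were exactly whole (remainder 0), and FPKM scaled by the authors. Cuffdiff divides fragments between similar transcripts, which limits paralogs. Replicates are numbered from 0 in the tables and from 1 in the labels, and were matched in that order.

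Estimated counts were rounded, and edgeR 4.0.16 in R 4.3.3 was used to test them (filterByExpr, TMM, quasi-likelihood tests, all groups of a stage in 1 fit). Genes were called at a Benjamini-Hochberg adjusted p under 0.05 and over 2-fold. Departure from additivity and the between-stage difference had no fold threshold. On simulated counts in the L/Z Dnmt3l KO comparison (14453 genes), 23.5% of 2-fold and 76.0% of 4-fold changes reached an adjusted p under 0.05. The fold threshold was not applied there, so these shares are not those of the calls. In the P0 Dnmt3l KO comparison (15684 genes) the shares were 38.8% and 80.6%. Unchanged genes that reached that adjusted p numbered 10 at L/Z and 2 at P0. The GC and length offset came from 2 loess curves per library (span 0.3), on GC content and then on log2 transcript length. The curves were fitted to genes that passed the filter, had known values and had a mean of at least 10 counts. GC content and length were known for 23623 of the genes listed. FPKM was tested with limma 3.58.1 after adding 1 or 0.1, and DESeq2 1.42.0 was an alternative. Gene positions came from RefSeq, start windows from RefSeq GRCm38.p6, and transcripts and coding sequences from GENCODE vM21. The edgeR p-values set the difference between groups against the variation between these libraries. That variation was estimated over all groups of a fit, with information shared across genes.

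The genes, lists and tests were chosen with earlier results of these data known. Named members were those called or with an adjusted p under 0.05, the 4 largest rises and 4 largest falls per comparison with WT among members with separate replicates and a mean of at least 50 counts in the higher group, the 6 most abundant in WT per stage, and any at 0 in every library. Members named otherwise were chosen after their values were seen. Alternatives were other size factors and filters, a fit of the compared groups alone, no threshold on fold, a block for replicate number, a factor for libraries rich in 45S pre-ribosomal RNA, and leaving out each library. Added after seeing the data were the crossed block, the offset between stages and the median over members sharing few windows.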

Additional observations from a re-analysis of the deposited data

Results flagged for a closer look

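In the 4 P0 Pld6 KO libraries, each of the 31 tested genes was examined for 1 library far from the rest (a gap over Dixon's 95% critical value), and 2 genes had one, where chance flags about 1 in 20. Zfp934 stood at 30.9 CPM in replicate 1 against 20.3, 18.3 and 18.2 (ratio 0.838). Replicate 1 also held 129.8 CPM of the 10 prospermatogonia markers against 400.8 to 478.2 in the other 3, and 1153 CPM of blood markers against 297.6 to 914.6, and the part of these was not tested. Zfp944 stood at 19.1 CPM in replicate 3 against 35.9, 35.7 and 33.4 (ratio 0.851).

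Zfp932 and Zfp952 were lower in both Dnmt3l KO libraries than in both WT libraries at L/Z and higher in both at P0. Of all genes, 27.5% were lower in this way at L/Z and 25.3% higher at P0, each stage taken alone. The L/Z effect minus the P0 effect was −0.911 on the log2 scale for Zfp932 (adjusted p = 0.207, edgeR) and −1.26 for Zfp952 (adjusted p = 0.136), so neither difference passed the test. Zfp932 had 24.1 and 21.7 CPM in L/Z WT and 20.2 and 20.5 in L/Z Dnmt3l KO. Zfp952 had 15.5 and 15.9 CPM in P0 WT and 22.4 and 19.1 in P0 Dnmt3l KO. With the GC and length offset the P0 differences were 0.24 ± 0.19 (Zfp932) and 0.12 ± 0.23 (Zfp952). Those at L/Z were −0.79 ± 0.25 and −1.19 ± 0.40. Zfp932 shared 45.2% of its 50-base windows, mostly with Gm15446.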

How the results depend on the processing

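The count of members called differed from the reported value in 1 comparison, L/Z Dnmt3l KO against WT. There 1 member, Zfp943, was reported, 0 were called with the GC and length offset (276 of all genes, 802 without it) or with the replicate block together with that offset, 2 with a factor for the 45S-rich libraries (Zfp948 added), and 0 to 1 when a library was left out, 0 without Dnmt3l KO replicate 1 (1 gene of all called) or WT replicate 1 (149 genes). A group left with 1 library was assumed to vary like the others. In the other 10 comparisons the count was 0 under every alternative run. Changes of sign under the alternatives were counted only for a chosen set of genes and comparisons, not for all 31 members. Over all 31, the GC and length offset moved the number above 0 from 21 to 7 in L/Z Dnmt3l KO. In P0 Dnmt3l KO it moved that number from 30 to 17. Within the chosen set, 3 single-gene changes changed sign, each in L/Z Dnmt3l KO. Zfp942 went from 0.60 to −0.004 with the GC and length offset and to −0.001 with the block added, Zfp951 from 0.37 to −0.075 and −0.062, and Trim28 from 0.15 to between −0.084 and 0.421 when a library was left out, below 0 without WT replicate 1. The replicate numbers did not pair the libraries across all groups. At L/Z the deviations of same-numbered libraries correlated at 0.485 between WT and Pld6 KO but at −0.143 and −0.134 with Dnmt3l KO. At P0 the correlations ranged from −0.333 to 0.272. The 45S-rich libraries were L/Z WT replicate 1 and L/Z Pld6 KO replicate 1, with 8.27% and 8.06% of fragments from Rn45s. All remaining L/Z libraries, both Dnmt3l KO libraries among them, held 0.13% to 0.30%. The part of this trait in the correlation of 0.485 was not tested. At P0, where no such factor was fitted, DKO replicate 1 held 4.43% and the other libraries 0% to 0.98%. The part of this in the DKO comparisons was not tested. The replicate block alone left 1 member called in L/Z Dnmt3l KO and moved the count of all genes from 802 to 912, the crossed block gave 1282, and 0 members were called with the block in any other comparison. Counting error sets a limit for genes such as Zfp936 at P0 and Zfp953 at L/Z.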
